A study of Mus musculus with 12 samples.

Results

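The 9 genes described here encode proteins that a neutrophil makes and packs into its secondary granules, or that rise at the same stage of its maturation. They are Ltf, Camp, Ngp, Lcn2, Chil3, Lyz2, Cd177, Ly6g and Retnlg, and were taken as the rows of 12 RNA-seq count tables whose Ensembl identifier maps to these symbols. All 9 were found among the 55335 genes listed in each library, and all 9 passed the filter on low counts in every comparison. The libraries were made from neutrophils of 10-week-old mice in 3 groups of 4 libraries. PyMT TANs are tumor-associated neutrophils from the mammary tumors of mice that carry the polyoma middle T transgene. PyMT-Cxcr2-/- TANs come from tumors of mice with the same transgene that lack the chemokine receptor Cxcr2 by germline deletion, in every cell type. WT BM neutrophils come from the bone marrow of mice with neither the transgene nor the deletion. All mice were on the FVB background and in SOPF housing. Cells from tumors were released by enzymatic dissociation and those from marrow by centrifugation of leg bones, after which CD11b-positive cells were enriched and CD45+ CD11b+ Ly6G+ F4/80- cells were sorted. No marrow of PyMT or PyMT-Cxcr2-/- mice was analysed here, so that tissue, tumor, cell isolation and, for PyMT-Cxcr2-/- TANs, genotype cannot be told apart in a comparison of TANs with WT BM. The labels number the libraries of a group 1 to 4. The TANs came from 4 animals per group, as many as there are libraries, while the number of mice behind the WT BM libraries is not given in the sources used here.

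Neutrophils acquire their granules in the marrow in a fixed sequence. Primary granules with their serine proteases and myeloperoxidase are filled at the promyelocyte stage, secondary granules at the myelocyte and metamyelocyte stages, and tertiary granules last, and the transcription of each set largely stops when the next begins. A mature neutrophil therefore carries the proteins of its secondary granules long after most of the messenger RNA is gone, and the RNA level of these genes is used as a measure of how young a neutrophil is. The transcription factor C/EBP-epsilon, encoded by Cebpe, is required for the secondary granule program.

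Ltf encodes lactotransferrin, the iron-binding protein that defines the secondary granule. Camp encodes the precursor of the antimicrobial cathelicidin peptide, and Ngp encodes neutrophilic granule protein, a relative of the cathelicidins and cystatins. Lcn2 encodes lipocalin 2, which withholds iron from bacteria by binding their siderophores, and is also made by epithelial cells. Chil3 encodes the chitinase-like protein Ym1, which macrophages of the mouse can make too. Lyz2 encodes the lysozyme of myeloid cells, which is present in more than one granule type and is abundant in monocytes and macrophages. Cd177 encodes a glycosylphosphatidylinositol-anchored surface protein stored in secondary granules, Ly6g the surface antigen used to sort these cells, and Retnlg a resistin-like secreted protein of neutrophils.

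On mm10, Camp (ENSMUSG00000038357.10), Ngp (ENSMUSG00000032484.8) and Ltf (ENSMUSG00000032496.7) lie near each other on chromosome 9. Camp is at 109847379 to 109849617 on the minus strand, Ngp at 110419747 to 110423012 and Ltf at 111019271 to 111042767, both on the plus strand. The gap between Camp and Ngp is 0.570 megabases, that between Ngp and Ltf is 0.596 megabases, and the 3 genes span 1.195 megabases. The other 6 are on 6 different chromosomes. Lcn2 is on chromosome 2 (32384633 to 32388252, minus), Chil3 on chromosome 3 (106147554 to 106167564, minus), Lyz2 on chromosome 10 (117277331 to 117282321, minus), Cd177 on chromosome 7 (24743983 to 24760311, minus), Ly6g on chromosome 15 (75155240 to 75159126, plus) and Retnlg on chromosome 16 (48872621 to 48874496, plus). No exon of the 9 genes overlaps an exon of another annotated gene on either strand. Near-identical copies could take reads from only 2 of them, since 1.35% of the 120-base windows of Chil3 transcripts are also found in Chil4 or Gm6522 and 0.48% of those of Cd177 in BC049730, while the other 7 share none.

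The promoters of 5 of the genes are shown because these genes stand at the ends of the order of retention described further on, namely the 4 that kept the least of their marrow level and Retnlg, 1 of those that kept the most. Each is the stretch upstream of both the RefSeq and the GENCODE M21 start, 5′ to 3′ on the strand of the gene, from RefSeq on GRCm38.p6, the assembly of mm10, within the 250 bases before the RefSeq start. Capitals mark a match to TTGCNNAA, a form of the C/EBP motif, on either strand.

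Ltf, chr9:111019042-111019270, plus strand: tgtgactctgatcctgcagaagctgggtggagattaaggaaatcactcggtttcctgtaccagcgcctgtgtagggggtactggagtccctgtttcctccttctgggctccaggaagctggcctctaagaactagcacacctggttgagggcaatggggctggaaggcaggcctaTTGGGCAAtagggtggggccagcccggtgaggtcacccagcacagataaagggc
Ngp, chr9:110419558-110419746, plus strand: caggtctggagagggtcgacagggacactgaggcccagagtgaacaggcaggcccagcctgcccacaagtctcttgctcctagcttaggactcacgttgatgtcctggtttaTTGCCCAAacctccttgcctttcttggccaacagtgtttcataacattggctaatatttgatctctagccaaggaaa
Camp, chr9:109849618-109849706, minus strand: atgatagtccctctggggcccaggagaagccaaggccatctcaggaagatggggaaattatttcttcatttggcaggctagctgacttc
Chil3, chr3:106167565-106167814, minus strand: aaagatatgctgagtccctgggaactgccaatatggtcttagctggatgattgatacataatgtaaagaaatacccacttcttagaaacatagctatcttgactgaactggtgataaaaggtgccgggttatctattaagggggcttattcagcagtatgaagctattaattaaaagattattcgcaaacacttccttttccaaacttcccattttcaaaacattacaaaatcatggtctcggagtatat
Retnlg, chr16:48872358-48872607, plus strand: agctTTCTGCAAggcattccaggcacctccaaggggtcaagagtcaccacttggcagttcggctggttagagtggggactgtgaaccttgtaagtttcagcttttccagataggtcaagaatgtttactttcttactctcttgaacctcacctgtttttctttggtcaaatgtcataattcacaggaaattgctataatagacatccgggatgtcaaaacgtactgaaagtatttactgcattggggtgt

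Within the whole 250 bases, the motif was matched once in Ltf, Lcn2 and Retnlg, in 1 of the 2 RefSeq promoters of Ly6g, and at 2 places in Ngp, of which the second lies between both annotated starts and is not shown. No match was found in Camp, Chil3, Lyz2 and Cd177. Of all 32851 promoters of this length, 9.56% hold the motif. The sequence AGAGGAAG, a form of the PU.1 motif, was in none of the 9 genes' promoters and in 3.67% of all, and TATAAA on the gene's strand was in those of Cd177 and Ly6g and in 7.59% of all. Before the RefSeq start, C/EBP matches were thus present in Ltf and Ngp of the genes that kept little of the marrow level. Of those that kept more, Lcn2, Ly6g and Retnlg had them. The whole stretch of Lcn2 lies downstream of its GENCODE start, so that its match is not upstream of both starts. For Camp, 89 of the 250 bases are upstream of both.

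Each library held 25032704 to 51351569 counts on genes, and the smallest count of any of the 9 genes in a library was 784, so that the spread between libraries and not the counting error limits the values. Counts were scaled to CPM, that is, by the library total adjusted with TMM factors over the 12 libraries. As the labels require, Cxcr2 was low in PyMT-Cxcr2-/- TANs, at 8.82 to 10.0 CPM, with PyMT TANs at 1044 to 1524 CPM and WT BM at 1825 to 2253 CPM. The summed level of 8 macrophage markers (all over 1 CPM in both TAN groups, 6 in BM) was 238 to 332 CPM in WT BM, but 1317 to 2703 CPM in TANs of PyMT mice and 1314 to 2193 CPM in those of PyMT-Cxcr2-/- mice. That of 8 epithelial markers (7 over 1 CPM in both TAN groups, 0 in BM) was 0.120 to 0.516 CPM in WT BM, 49.1 to 452 CPM in the former and 84.4 to 324 CPM in the latter. TAN libraries thus held RNA of both kinds at levels that BM libraries did not.

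In WT BM neutrophils the 9 genes together took 5.20% to 6.46% of all counts on genes. Per kilobase of exon, the scale on which genes can be compared, Retnlg was the highest of them at 14188 CPM per kilobase, followed by Ngp at 13376, Lyz2 at 10326, Camp at 6406, Ltf at 4327, Lcn2 at 2661, Chil3 at 1651, Cd177 at 1160 and Ly6g at 583 (means, n = 4). Retnlg, Ngp and Lyz2 stood 3rd, 4th and 5th among 21899 protein-coding genes, and Ly6g, the lowest of the 9, stood 40th. All 9 were thus among the most abundant messenger RNAs of the sorted marrow cells.

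Both kinds of TANs held far less. The 9 genes took 0.322% to 0.466% of the counts in PyMT TANs and 0.821% to 1.47% in PyMT-Cxcr2-/- TANs. Per kilobase, Lyz2 was still the 10th and Retnlg the 13th protein-coding gene in PyMT TANs, whereas Ngp had moved to 132nd, Ltf to 408th, Camp to 642nd and Chil3 to 1316th. In PyMT-Cxcr2-/- TANs Retnlg was 6th, Lyz2 7th, Ngp 13th, Ltf 57th, Camp 88th and Chil3 333rd. In bulk libraries fewer cells that express a gene and less RNA per cell cannot be told apart.

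**Figure D1:**
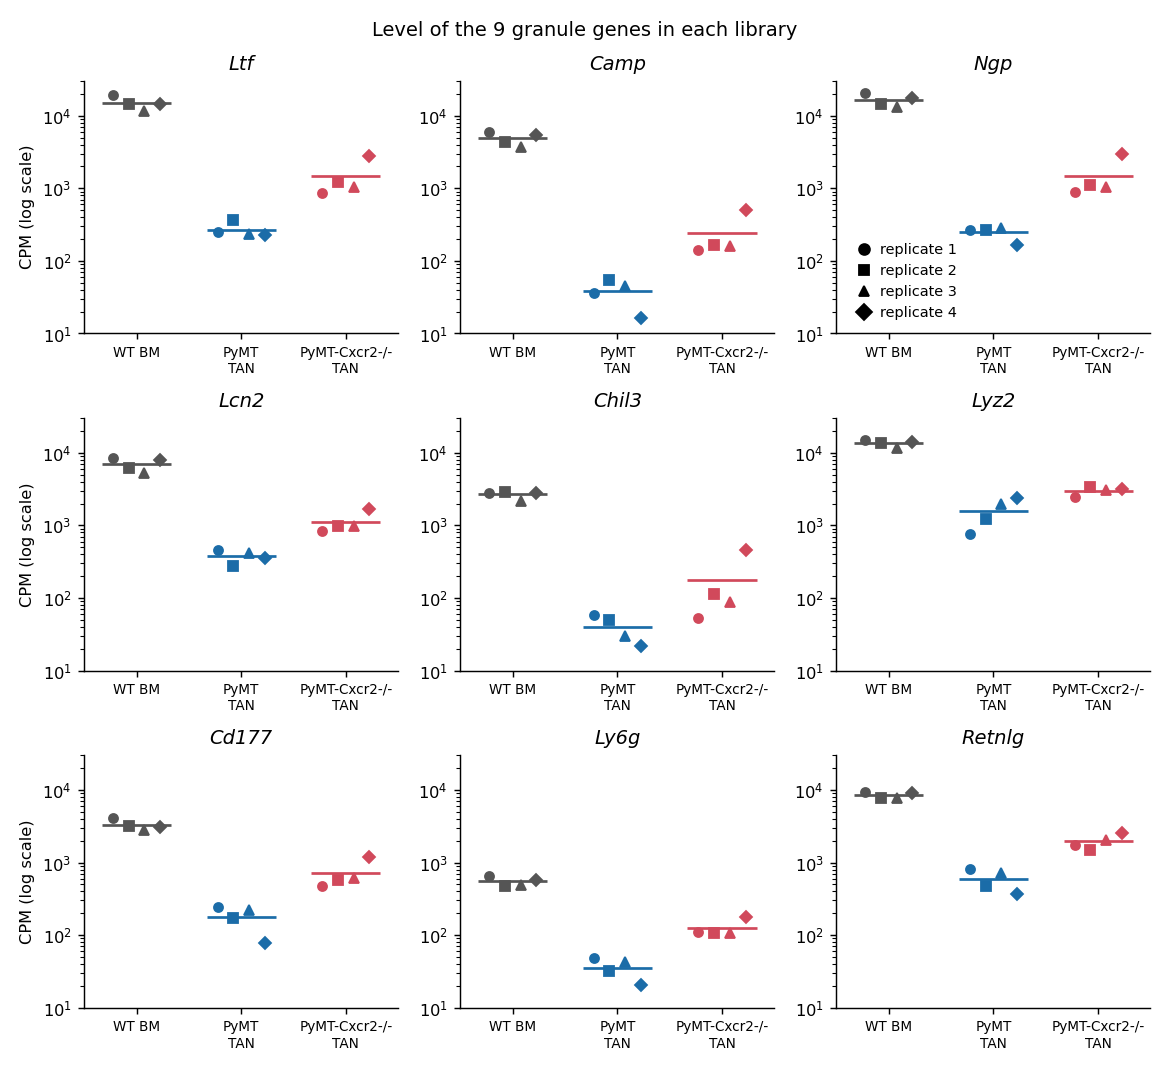
CPM of the 9 genes on a log scale in each of the 12 libraries, with 1 panel per gene, the shape giving the replicate number and the line the group mean. WT BM is above both TAN groups for every gene, and PyMT-Cxcr2-/- TANs are above PyMT TANs without overlap for all but Chil3.

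All 9 genes fell in PyMT TANs compared to WT BM. A gene was called if its adjusted p was under 0.05 (edgeR's quasi-likelihood test, Benjamini-Hochberg over all genes tested) and its fold change at least 1.5, and 23.2% of the 17153 genes tested were called lower in this comparison. The median log2 fold change was -4.16 over the 9 genes and 0.09 over all genes. Every PyMT TAN library was below every WT BM library for each of the 9, a pattern that 29.5% of all tested genes had.

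Camp fell the most. It was at 36.6, 54.5, 44.8 and 16.3 CPM in PyMT TAN replicates 1 to 4, against 5905, 4350, 3709 and 5458 CPM in WT BM, a log2 fold change of -6.93 (SE 0.39, adjusted p = 1.6e-07 by edgeR), or 122-fold. Chil3 was at 58.0, 50.0, 29.6 and 21.8 CPM against 2829, 2923, 2192 and 2831 CPM, a log2 fold change of -6.02 (SE 0.32). The highest TAN value of each, 54.5 and 58.0 CPM, lay far below the lowest marrow value, 3709 and 2192 CPM. The log2 fold change was -5.99 (SE 0.25) for Ngp and -5.73 (SE 0.24) for Ltf, from 16346 ± 3300 to 246 ± 55.4 CPM and from 14927 ± 3037 to 268 ± 65.8 CPM (mean ± SD, n = 4).

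The other 5 fell less. Their log2 fold changes were -4.16 (SE 0.22) for Lcn2, -4.15 (SE 0.33) for Cd177, -3.88 (SE 0.26) for Ly6g, -3.76 (SE 0.25) for Retnlg and -3.03 (SE 0.32) for Lyz2. Retnlg was at 815, 480, 726 and 363 CPM in PyMT TANs against 9269, 7633, 7760 and 8990 CPM in WT BM. Lyz2 had the smallest change, with an adjusted p of 1.4e-05 by edgeR.

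The 9 genes were also all lower in PyMT-Cxcr2-/- TANs than in WT BM, in which comparison 25.1% of 17732 genes tested were called lower, and again no libraries overlapped (33.8% of genes in this direction). Their median log2 fold change was -2.51, against 0.09 over all genes. Both comparisons share the same 4 marrow libraries, so they are not independent of each other. The log2 fold change was -4.19 (SE 0.42) for Camp, -3.79 (SE 0.70) for Chil3, -3.32 (SE 0.36) for Ngp, -3.20 (SE 0.35) for Ltf and -2.51 (SE 0.23) for Lcn2. It was between -2.07 and -1.97 for Cd177, Lyz2, Ly6g and Retnlg. The adjusted p was at most 0.0015 (Chil3) by edgeR.

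To compare how far each gene was retained, its level in a TAN library was expressed as a percent of the mean level in WT BM. In PyMT TANs, Lyz2 kept 11.7% ± 5.43 (SD, n = 4), Retnlg 7.09% ± 2.50, Ly6g 6.50% ± 2.23, Cd177 5.39% ± 2.24 and Lcn2 5.35% ± 1.10. Ltf kept 1.80% ± 0.441, Ngp 1.51% ± 0.339, Chil3 1.48% ± 0.628 and Camp 0.784% ± 0.334. Among neighbours in this order, only Lcn2 (3.95% to 6.48%) and Ltf (1.52% to 2.45%) did not overlap in their ranges. On this basis the 9 genes are described as a group of 5 that kept more and a group of 4 that kept less. Across libraries the ranges of both groups still overlapped, as Cd177 of the 5 (2.35% to 7.42%) reached below the highest value of Ltf. Neighbours inside each group overlapped in their ranges. Camp, the lowest of the group of 4 (0.336% to 1.12%), nevertheless lay below Ltf (1.52% to 2.45%) without overlap in these TANs. These groups were drawn after their values were seen.

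The same split was present within every TAN library. For PyMT TANs this is in part set by the choice, since the groups were drawn from the means of these same libraries. The percents of both TAN groups also share the same WT BM means. In each of the 4 PyMT TAN libraries the lowest of the 5 was above the highest of the 4. The margin was smallest in replicate 4, with Cd177 at 2.35% and Ltf at 1.52%, and largest in replicate 3, with Lcn2 at 5.93% and Ngp at 1.74%. In each of the 4 PyMT-Cxcr2-/- TAN libraries it was so too, with the lowest of the 5 at 11.9%, 13.98%, 13.9% and 23.6% and the highest of the 4, always Ltf, at 5.73%, 8.21%, 6.87% and 18.9% in replicates 1 to 4. Camp was the least retained gene in 7 of the 8 TAN libraries and Chil3 in the other, PyMT-Cxcr2-/- replicate 1.

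The level kept was higher for each gene in PyMT-Cxcr2-/- TANs. Retnlg kept 23.3% ± 5.28 (SD, n = 4), Ly6g 22.8% ± 6.70, Lyz2 22.2% ± 2.86, Cd177 21.8% ± 9.94 and Lcn2 16.03% ± 5.61. Ltf kept 9.92% ± 6.06, Ngp 9.14% ± 5.87, Chil3 6.63% ± 7.00 and Camp 5.03% ± 3.64. The ranges of all neighbours in this order overlapped, but within each library Cd177 was above Lcn2, Lcn2 above Ltf, Ltf above Ngp and Ngp above Chil3 in 4 of 4. As Ly6G protein was used to sort the cells, the level of Ly6g is in part set by the sort and is no finding of its own.

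**Figure D2:**
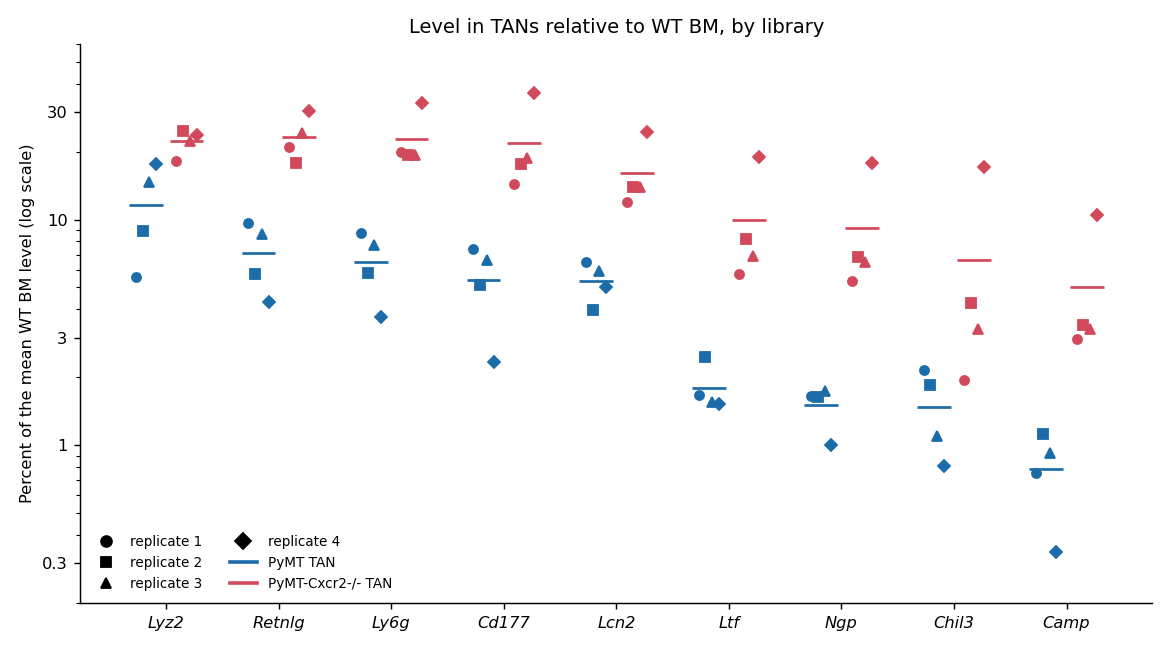
Level of each gene in each TAN library as a percent of its mean in WT BM, on a log scale and ordered by the mean in PyMT TANs, with shapes for the replicates and lines for the group means. Lyz2 to Lcn2 lie above Ltf to Camp in every PyMT library, and replicate 4 of PyMT-Cxcr2-/- TANs lies above the other 3 for all genes but Lyz2.

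Whether a gene was retained to another extent than Ltf was tested by its ratio to Ltf within each library, a measure that does not depend on the scaling of libraries. With 4 libraries against 4, the smallest p that a two-sided exact permutation test can give is 0.0286, and adjusted over the 24 tests made (8 genes in 3 comparisons) it became 0.0527, so that 0 tests passed 0.05 and 13 reached the smallest value, that is, the groups did not overlap. As Ltf fell so far, a ratio to it that was higher in TANs than in WT BM without overlap was the rule and is no result about the 9 genes: it was found for 90.4% of all other genes tested in PyMT TANs and for 92.9% in PyMT-Cxcr2-/- TANs. A lower ratio without overlap was found for 0.117% and 0.344%.

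The ratio of Lyz2 to Ltf was close to 1 in WT BM, with a log2 ratio of -0.33 to -0.01, and was 1.60 to 3.39 in PyMT TANs, a difference of 2.57 or 5.96-fold (exact permutation p = 0.0286, adjusted 0.0527). Retnlg gained 3.78-fold over Ltf in PyMT TANs, Ly6g 3.48-fold, Lcn2 2.99-fold and Cd177 2.79-fold, none with overlap. The ratio of Camp to Ltf instead was 2.46-fold lower in PyMT TANs than in WT BM, again without overlap. The same 6 genes in PyMT-Cxcr2-/- TANs did not overlap with WT BM either, with Retnlg, Ly6g, Lyz2, Cd177 and Lcn2 at 2.56, 2.50, 2.47, 2.30 and 1.75 times their marrow ratio and Camp 2.05-fold lower.

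Ngp stayed closest to Ltf. Its log2 ratio to Ltf was -0.01 to 0.26 in WT BM, -0.47 to 0.30 in PyMT TANs and -0.13 to 0.05 in PyMT-Cxcr2-/- TANs, and the difference from WT BM was -0.26 (exact permutation p = 0.343, adjusted 0.392) and -0.13 (p = 0.143, adjusted 0.214). That of Chil3 was lower than in WT BM by 0.37 in PyMT TANs and 0.94 in PyMT-Cxcr2-/- TANs on the log2 scale, with overlap in both. Between both TAN groups, the ratio to Ltf overlapped for 7 of the 8 genes, while 70.2% of all other genes tested had a lower ratio to Ltf in PyMT-Cxcr2-/- TANs without overlap. Lyz2 did not overlap, at 1.60 to 3.39 in PyMT TANs and 0.19 to 1.57 in PyMT-Cxcr2-/- TANs, so that relative to Ltf it was 2.41-fold lower in the latter (exact permutation p = 0.0286, adjusted 0.0527).

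**Figure D3:**
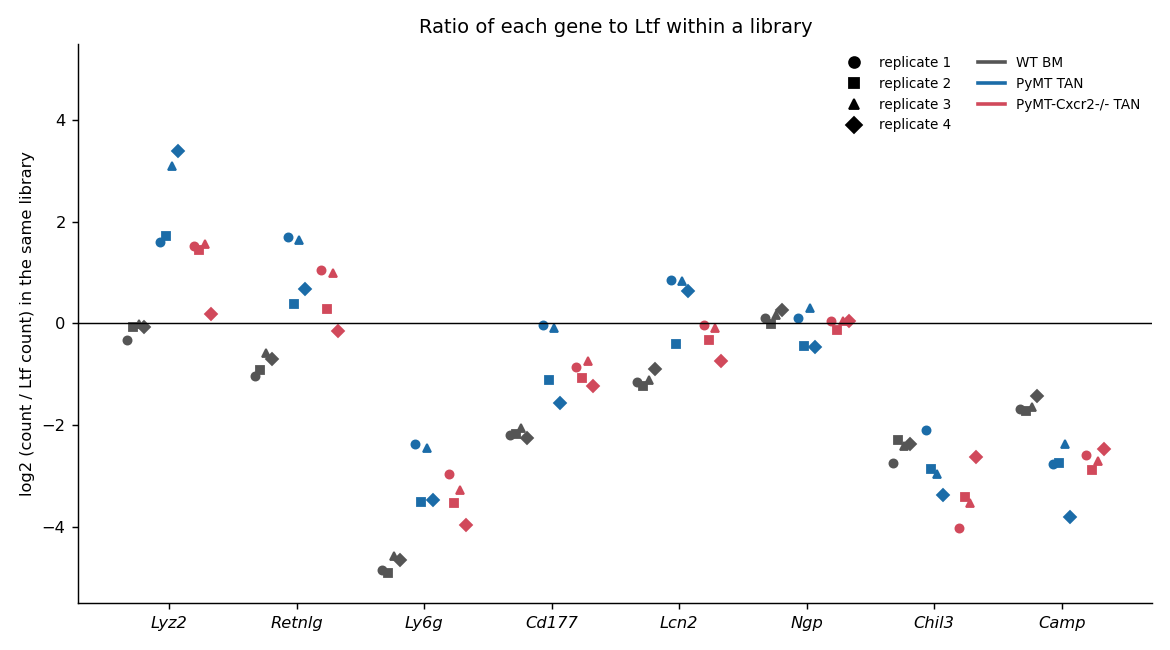
The log2 ratio of the count of each gene to the count of Ltf in the same library, for 8 genes and 3 groups with 4 libraries each, where the horizontal line marks equal counts. Lyz2, Retnlg, Ly6g, Cd177 and Lcn2 lie higher in both TAN groups than in WT BM, Camp lies lower, and Ngp stays near the line in all 3 groups.

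All 9 genes had a higher mean level in PyMT-Cxcr2-/- TANs than in PyMT TANs, and 7 of the 9 were called higher. Of the 18463 genes tested, 1.38% were called higher in this comparison. The median log2 fold change was 2.01 over the 9 and -0.07 over all genes. Groups did not overlap for 8 of the 9, compared to 6.33% of all genes in this direction. Camp, Ngp and Ltf rose the most.

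Camp was at 143, 166, 158 and 509 CPM in PyMT-Cxcr2-/- TAN replicates 1 to 4, and 16.3 to 54.5 CPM in PyMT TANs, a log2 fold change of 2.68 (SE 0.50, adjusted p = 0.029 by edgeR) or 6.40-fold. Ngp was at 877, 1118, 1057 and 2925 CPM, compared to 269, 267, 284 and 164 CPM, a log2 fold change of 2.60 (SE 0.38, adjusted p = 0.011 by edgeR). Ltf was at 854, 1226, 1025 and 2818 CPM, compared to 249, 366, 232 and 227 CPM, a log2 fold change of 2.46 (SE 0.36, adjusted p = 0.011 by edgeR). For these 3 genes, the fourth PyMT-Cxcr2-/- library was far above the other three, which were nevertheless all above every PyMT library.

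Cd177 rose by a log2 fold change of 2.01 (SE 0.38, adjusted p = 0.025 by edgeR), from 244, 170, 219 and 77.2 CPM to 473, 579, 617 and 1200 CPM. Ly6g rose by 1.81 (SE 0.27), Retnlg by 1.71 (SE 0.26) and Lcn2 by 1.58 (SE 0.24), each with an adjusted p of 0.011 by edgeR. Retnlg was at 1767, 1501, 2033 and 2542 CPM and Lcn2 at 833, 976, 970 and 1698 CPM in PyMT-Cxcr2-/- TANs, and Lcn2 at 452, 276, 414 and 352 CPM in PyMT TANs.

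Chil3 and Lyz2 did not pass. Chil3 was at 52.2, 114, 88.4 and 459 CPM, which overlapped with PyMT TANs in replicate 1, and its log2 fold change of 2.16 had a wide error (SE 0.69, adjusted p = 0.17 by edgeR). Lyz2 was at 2472, 3359, 3035 and 3211 CPM, above the 755, 1211, 1985 and 2385 CPM of PyMT TANs in every library, with a log2 fold change of 0.93 (SE 0.30, adjusted p = 0.14 by edgeR). With DESeq2 both were called, at adjusted p = 0.038 and 0.01.

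The calls of this comparison rest on few libraries. Without PyMT replicate 2, only Ltf of the 9 was called (the other 6 at adjusted p = 0.05 to 0.089 by edgeR), and without PyMT-Cxcr2-/- replicate 4, 6 were, all but Cd177 of the 7 (adjusted p = 0.061 by edgeR). Camp was not called without PyMT replicates 1, 2 or 3 or without PyMT-Cxcr2-/- replicates 2 or 3, each left out in turn (adjusted p = 0.051 to 0.087 by edgeR), nor Cd177 without PyMT replicates 2 or 3 or PyMT-Cxcr2-/- replicates 3 or 4 (0.061 to 0.089). After removal of each library's trend with GC content and gene length, 2 (Ltf and Lcn2) were called, and without a filter on low counts 4 were. The log2 fold changes of genes that lost their call stayed high, at 2.30 for Camp, 2.32 for Ngp, 1.91 for Cd177, 1.47 for Ly6g and 1.28 for Retnlg without the trends, and at 2.73 for Camp, 2.65 for Ngp and 2.06 for Cd177 without the filter. None of the 9 changed sign in any of these. All 9 had an unadjusted p under 0.05 by edgeR with every library left out in turn. With all libraries, 2800 of the 18463 genes tested had such a p. As the 9 were chosen with earlier results of these data known, this is no independent support.

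**Figure D4:**
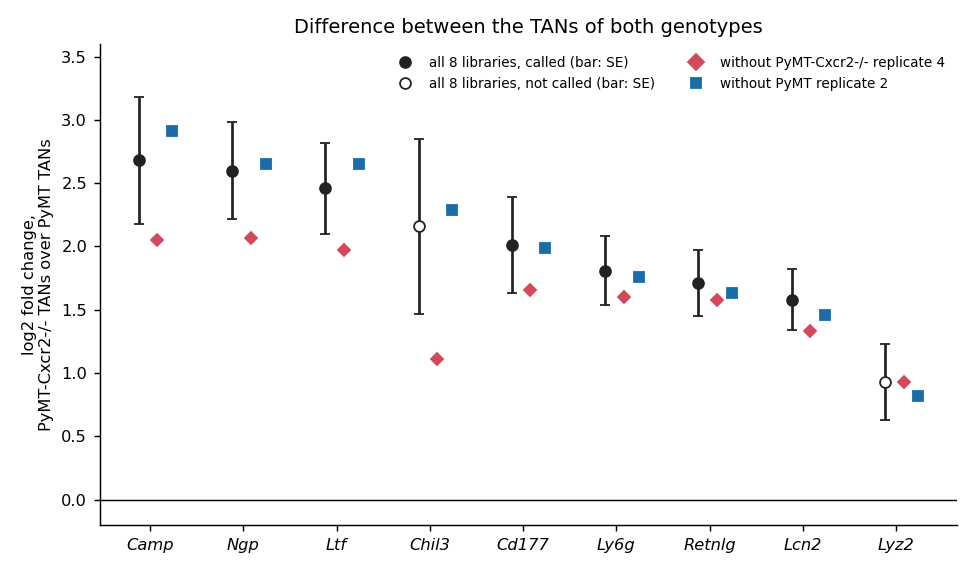
Log2 fold change of each gene between PyMT-Cxcr2-/- and PyMT TANs from edgeR with its standard error, filled where called, beside the value without PyMT-Cxcr2-/- replicate 4 and without PyMT replicate 2. All values are above 0, and leaving out PyMT-Cxcr2-/- replicate 4 lowers Chil3 from 2.16 to 1.11 and leaves Lyz2 at 0.93.

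The fourth PyMT-Cxcr2-/- library stood apart in a graded way. Compared to the mean of the other three, it had 5.39-fold more Chil3, 3.26-fold more Camp, 2.88-fold more Ngp, 2.72-fold more Ltf, 2.16-fold more Cd177, 1.83-fold more Lcn2, 1.69-fold more Ly6g and 1.44-fold more Retnlg, but Lyz2 was only 1.09-fold higher. The 4 genes with the lowest retention in PyMT TANs were thus the 4 with the largest excess in this library. The same library had Cebpe at 18.7 CPM, 4.55-fold the mean of the other three, Serpinb1a at 2.55-fold, Mmp8 at 1.65-fold and Olfm4 at 1.64-fold, while the primary granule genes were divided, with 4 of 10 above and 5 below the mean of the other three and 1 without counts there. Among those, Mpo, the myeloperoxidase, was at 0.452 CPM and 0.521-fold, but Ms4a3 at 0.987 CPM and 7.56-fold. It also had the highest sum of 6 neutrophil markers in its group, 23552 compared to 14597 to 16942 CPM, and the lowest sum of macrophage markers, 1314 compared to 1682 to 2193 CPM, whose part in these values was not tested. Without it, the log2 fold changes between both TAN groups were 2.07 for Ngp, 2.05 for Camp, 1.97 for Ltf and 1.11 for Chil3.

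Among PyMT TANs it was also the fourth library that differed, in the opposite direction, and it was the lowest of its group for 7 of the 9 genes. Its Camp level was 0.360-fold, Cd177 0.366-fold, Chil3 0.477-fold, Ly6g 0.497-fold, Retnlg 0.539-fold and Ngp 0.598-fold the mean of the other three. Lyz2, however, was the highest of its group there, at 1.81-fold. Libraries with the same number in the 2 groups are different samples.

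Lyz2 did not follow the other 8 genes among PyMT TANs, being lowest in replicate 1, where Chil3, Cd177, Ly6g, Retnlg and Lcn2 were at their highest. The sum of epithelial markers in replicates 1 to 4 of PyMT TANs was 49.1, 64.4, 336 and 452 CPM, in the same order as Lyz2. That of macrophage markers was 1317, 2210, 2703 and 1858 CPM, in another order. Among PyMT-Cxcr2-/- TANs, macrophage markers were at 2145, 2193, 1682 and 1314 CPM and epithelial markers at 249, 324, 84.4 and 124 CPM. Lyz2 had the order of neither sum there. No marker of either list was called between both TAN groups by edgeR (0 of 8 and 0 of 8, with 0 at an unadjusted p under 0.05 and 0 by DESeq2). Single genes of other marker lists were called. Of 6 neutrophil markers, S100a8 and S100a9, the subunits of calprotectin, rose by 0.98 (SE 0.21) and 1.04 (SE 0.22), and Cxcr2 was lower, as the deletion sets. Cd3d, listed as a lymphocyte marker, was higher by 1.16 (SE 0.25), the 1 of 4 tested that was called. The summed list was at 10.3 to 28.8 CPM in PyMT TANs against 24.8 to 49.7 CPM. Cd3d made up most of it, with means of 12.45 of 18.5 CPM and 27.9 of 33.9 CPM. Its mean in WT BM was 221 CPM, so that it fell from marrow to TANs like the 9 genes. Cd3e, another T cell gene, averaged 0.211 CPM in WT BM and 0.722 and 0.233 CPM in the TANs. The source of the Cd3d counts was not tested. Siglecf, a lectin known from eosinophils and also found on some neutrophils, had a log2 fold change of -1.32 (SE 0.18, adjusted p = 0.01 by edgeR). Of 5 fibroblast markers 0 were called by edgeR or DESeq2 and 2 had an unadjusted p under 0.05, with a median log2 fold change of 1.94 and a summed level of 0.801 to 13.2 CPM in PyMT TANs and 1.77 to 34.0 CPM in PyMT-Cxcr2-/- TANs. Both red cell markers tested had a log2 fold change below 0 and an unadjusted p under 0.05, and 0 were called by edgeR or DESeq2. This rests on PyMT replicate 3, where the summed list was at 112 CPM. It was at 0.708 to 2.05 CPM in the other PyMT TAN libraries and 1.18 to 1.61 CPM in PyMT-Cxcr2-/- TANs. The part of such cells in the levels of the 9 genes in TANs was not tested.

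The lists of other granule genes were chosen with earlier results of these data known, as were the 9. Of 12 other secondary granule genes, 11 were tested in PyMT TANs compared to WT BM and 10 fell, with a median log2 fold change of -1.89. The log2 fold change was -4.60 (SE 0.21) for Olfm4, which encodes olfactomedin 4, and -4.31 (SE 0.25) for Mmp8, the neutrophil collagenase, close to Lcn2 and Cd177. For Itgam and Itgb2, the chains of the integrin Mac-1, it was -1.89 and -1.83. Of the 12 tested in PyMT-Cxcr2-/- TANs, 9 fell, and the gene called higher was Ptx3, the secreted pattern receptor pentraxin 3, which had no count in the 4 WT BM libraries and 0.578 to 1.54 CPM in these TANs.

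Between both TAN groups, 2 of these 12 rose, with a median log2 fold change of 0.68 over the list. All 12 had a fold change above 0, 9 had an unadjusted p under 0.05, and 8 were called by DESeq2, so that the number called depends on the tool. Mmp8 rose by 1.81 (SE 0.27, adjusted p = 0.011 by edgeR), from 237 ± 82.1 to 835 ± 247 CPM (SD, n = 4). Pglyrp1, a peptidoglycan-binding protein, rose by 1.29 (SE 0.23, adjusted p = 0.019 by edgeR). Olfm4, which fell to a similar extent as Mmp8 in PyMT TANs, had a log2 fold change of 0.79 (SE 0.22, adjusted p = 0.098 by edgeR) and was not called.

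Of 7 tertiary granule genes, 4 fell and 2 rose in PyMT TANs compared to WT BM, in which comparison 30.1% of all genes tested were called higher. The log2 fold change was -3.11 for Mmp25, a membrane metalloproteinase, -2.75 for Mmp9, gelatinase B, -2.17 for the formyl peptide receptor gene Fpr1 and -0.82 for Adam8, but 2.36 for the heparanase gene Hpse and 1.11 for Qsox1. With PyMT-Cxcr2-/- TANs, where 34.4% of all genes were called higher, 3 fell and Hpse and Qsox1 again rose. Between both TAN groups 3 rose, namely Mmp25 by 1.37 (SE 0.27), Adam8 by 0.98 (SE 0.15) and Qsox1 by 0.69 (SE 0.16), and the median over the list was 0.91.

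Of 9 primary granule genes tested, 7 fell in each TAN group. Their levels in marrow were low already, with Mpo at 31.4 ± 8.10 CPM and Elane, neutrophil elastase, at 13.4 ± 4.38 CPM in WT BM (SD, n = 4), and at 2.03 ± 2.34 and 0.296 ± 0.486 CPM in PyMT TANs. The lysosomal gene Gusb rose in both TAN groups, by 1.22 and 1.33. Between both TAN groups, 1 of 7 tested rose, which was Serpinb1a, by 1.73 (SE 0.31, adjusted p = 0.019 by edgeR). It encodes an inhibitor of the granule proteases and is not itself stored in the granule. Mpo had a log2 fold change of -1.41 (SE 0.76, adjusted p = 0.44 by edgeR), and the median over the list was 0.04.

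Of 7 transcription factors of the granule program, Cebpe fell the most in TANs, with a log2 fold change of -5.81 (SE 0.24) in PyMT TANs and -4.09 (SE 0.60) in PyMT-Cxcr2-/- TANs, close to the changes of Ltf, Ngp, Chil3 and Camp. It was at 145 ± 34.4 CPM in WT BM, 1.67 to 2.83 CPM in TANs of PyMT mice and 3.44 to 18.7 CPM in those of PyMT-Cxcr2-/- mice. Gfi1, Cebpd and Spi1 also fell in both TAN groups, and Cebpb rose by 1.67 and 2.49, Runx1 by 1.03 and 0.65 and Cebpa by 0.62 and 0.92. Exons of Gfi1, Cebpa, Cebpb, Cebpd and Runx1 overlap an exon of a gene on the other strand. As the strand setting of the counting is not given in the sources used here, their values are uncertain. The same holds for Adam8, Qsox1, Mpo, Prtn3 and Prss57 of the other granule lists and for Ly6k of the relatives described below. Exons of Olfm4, Itgam, Slpi and Trf overlap an exon of a gene on the same strand, so that their values are uncertain too. Between both TAN groups 0 of the 7 were called by edgeR, 4 had an unadjusted p under 0.05 and 2 were called by DESeq2. The log2 fold change of Cebpe was 1.64 (SE 0.52, adjusted p = 0.14 by edgeR), without overlap between the groups.

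Relatives of the 9 genes did not move as a family. Ly6c2, a neighbour of Ly6g on chromosome 15, had a log2 fold change of -4.77 (SE 0.24) in PyMT TANs and -2.85 (SE 0.21) in PyMT-Cxcr2-/- TANs compared to WT BM, and was higher in the latter TANs by 1.84 (SE 0.28, adjusted p = 0.011 by edgeR), the 1 of 8 relatives tested that was called between both TAN groups. Chil1, the relative of Chil3 known as chitinase-like 1, had -1.54 and -0.77. The transferrin gene Trf, the relative of Ltf, rose instead by 2.66 (SE 0.30) and 2.82 (SE 0.23), and Ly6i by 4.17 and 3.52. The resistin-like genes went opposite ways, with log2 fold changes of -5.95 and -3.30 for Retnlb, while Retnla went from 0.0375 CPM in WT BM to 58.0 ± 64.8 CPM in PyMT TANs and 28.6 ± 10.5 CPM in those of PyMT-Cxcr2-/- mice. Lyz1, the intestinal lysozyme next to Lyz2, was not called. It was at 10.3 ± 1.01 CPM in WT BM and 14.8 ± 16.8 and 13.96 ± 7.32 CPM in TANs. In PyMT TAN replicates 1 to 4, Trf was at 274, 301, 586 and 729 CPM. This is the order of the summed epithelial markers, and Lyz1 had it too. Ly6i, Ly6c2 and Chil1 had other orders. Retnla, at 2.34, 8.23, 138 and 83.3 CPM, had the order of the macrophage marker Mrc1, not that of the macrophage sum. Among PyMT-Cxcr2-/- TANs, Lyz1 was highest in replicate 3, where the epithelial sum was lowest. The part of other cells in the levels of the relatives was not tested.

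**Figure D5:**
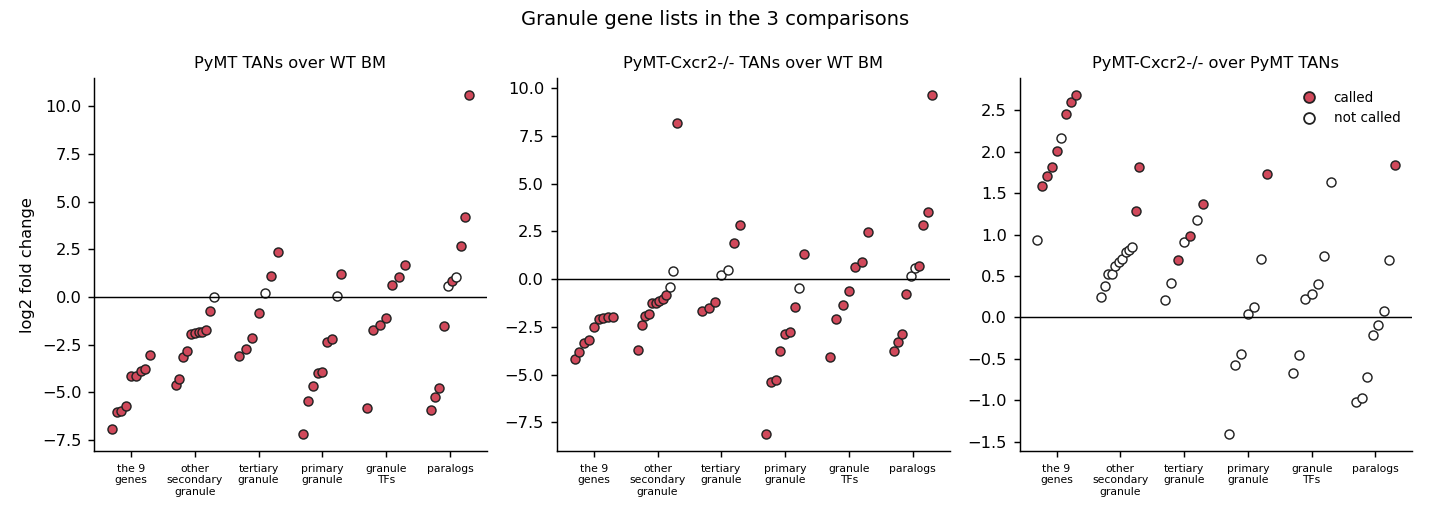
Log2 fold change of each tested gene of 6 lists in the 3 comparisons, with 1 panel per comparison and filled points for genes called by edgeR. All 9 genes lie below 0 against WT BM and above 0 between both TAN groups, where each other list holds 0 to 3 called genes.

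The genes most like each of the 9 over the 12 libraries were found among 7807 genes with a mean log2 CPM of at least 3, by the smallest root mean square difference of log2 CPM centred on its mean. All 12 libraries share the 3 groups, so that any gene with a similar fall from marrow to tumor comes close. For Ltf and Ngp they were I830127L07Rik, F730016J06Rik and Itgb2l, an integrin beta 2-like gene. I830127L07Rik differed by 0.28 from Ltf and by 0.23 from Ngp on the log2 scale, and averaged 781 CPM in WT BM, 14.6 CPM in TANs of PyMT mice and 74.0 CPM in those of PyMT-Cxcr2-/- mice.

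For Camp and Chil3, F730016J06Rik, I830127L07Rik and Cebpe came closest, but with larger differences of 0.51 to 0.81. For Cd177, Ly6g and Retnlg, which kept more, Ckap4 was the closest in each case, at 0.18 to 0.23, and Mmp8 was among the 3 closest for each, at 0.26. The third was Gpr27 for Cd177 and the kinase gene Lrrk2 for Ly6g and Retnlg. Lcn2 was closest to Crispld2 (0.17), Sytl1 and Rab3d, and Lyz2 to Mgst1 (0.28), Anxa3 and Def8. The 4 genes that kept least had other nearest genes than the 5 that kept more. This follows from the measure, which depends on the size of the fall by which those groups were drawn, and is no support for them.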

How the data were processed

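RNA-seq of sorted neutrophils in 3 groups of 4 libraries was used. The authors depleted ribosomal RNA, made directional libraries, trimmed paired-end reads, used STAR for alignment to mm10 and HTSeq for counting. The deposited values are raw counts per gene, which the authors normalized only later, with DESeq2. The strand setting and annotation release of the counting are not given in the sources used here. Identifiers were matched to GENCODE M21, with 55154 of 55335 genes receiving a symbol. All reads that the counting left unassigned were left out and were 46.3% to 60.5% of a library, of which those counted as without a feature were 32.0% to 52.5% of the library.

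Each comparison was fitted on its 2 groups with edgeR 4.0.16 (R 4.3.3), TMM normalization, filterByExpr, the quasi-likelihood test and robust estimation. Genes were called at an adjusted p under 0.05 (Benjamini-Hochberg) and 1.5-fold or more. CPM used TMM factors over the 12 libraries, and fold changes come from each fit. Ratios to Ltf added 0.5 to each count and were compared by two-sided exact permutation tests. The TANs came from 4 animals per group. For WT BM nothing says that libraries came from separate mice, and p-values there may measure only a technical spread between samples. Replicates differed by more than sampling noise in all 18 pairs (chi-square per degree of freedom 22.6 to 134). A level of 0 counts allows up to 3 counts, for counting error only.

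The named genes are the 9, Cxcr2, the genes of the granule, relative and marker lists, and for each of the 9 the 3 nearest genes. Members and lists were chosen with earlier results of these data known. Alternatives were RLE or library size scaling, TMM without the 9 genes, other filters, DESeq2 1.42.0, 12 libraries in one fit, the replicate number as a block, removal of GC and length trends, a pseudocount of 5 for ratios, and each library left out. The procedures were tested on simulated data.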

Additional observations from a re-analysis of the deposited data

Results flagged for a closer look

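For each of the 9 genes in each of the 3 groups, the highest and the lowest of the 4 libraries were compared with the rest by Dixon's criterion, under which the gap to the next library is divided by the range of the group and set against the critical value for 4 samples. Chance marks about 1 in 20 groups, and 8 of 27 were marked. They are not independent, since 5 of the 8 are in the fourth library of PyMT-Cxcr2-/- TANs. In that library Camp was at 509 CPM with the next at 166, Ngp at 2925 with the next at 1118, Lcn2 at 1698 with the next at 976, Chil3 at 459 with the next at 114, and Ly6g at 180 with the next at 109.

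Among PyMT TANs, Ltf was at 366 CPM in replicate 2 with the next library at 249, and Ngp was at 164 CPM in replicate 4 with the next at 267. In WT BM, Chil3 was at 2192 CPM in replicate 3 with the next at 2829.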

How the results depend on the processing

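In both comparisons with WT BM all 9 genes were called lower under every alternative run, and no log2 fold change of the 9 changed sign in any of the 3 comparisons. Between both TAN groups 7 of the 9 were called higher, 4 without a filter on low counts, 2 with GC and length trends removed, and 1 to 7 with each library left out. The labels do not say whether same-numbered libraries belong together. Those of both TAN groups deviated from their group means with correlations of -0.224 to -0.0737. These were -0.115 to 0.0721 for PyMT TANs with WT BM and 0.000583 to 0.0941 for PyMT-Cxcr2-/- TANs with WT BM. Such values cannot decide whether a replicate number stands for a shared batch. With the replicate number as a block, 0 of the 9 were called by edgeR, 8 had an unadjusted p under 0.05, and 1 was called with the trends removed as well. With a block fewer degrees of freedom remain. The block changed no other call of the 9 genes.

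Over all genes, 255 were called higher and 110 lower between both TAN groups. These were 206 and 391 by library size only, 684 and 300 by DESeq2, 579 and 307 in one fit of 12 libraries, 4 and 9 with the replicate block, 55 and 40 with GC and length trends removed, 12 and 21 with both, and 10 to 427 and 13 to 100 with each library left out, while 471 were higher without a filter. In PyMT TANs compared to WT BM, 5160 were higher and 3988 lower, 6674 and 2488 by library size only, and 4434 and 5259 with the trends removed. In PyMT-Cxcr2-/- TANs compared to WT BM, 6104 were higher and 4444 lower, 4788 and 7297 with the trends removed, and 7272 lower with the block added. Scaling by library size moved the median log2 fold change of all genes by -0.188, 0.441 and 0.179 in these 3 comparisons, and removing the trends moved it by -0.082, -0.355 and -0.543. The cause was not tested.

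Library size scaling was also the alternative that moved the percent retained beyond its SD, in 8 of 18 values, for example from 1.80% to 2.58% for Ltf in PyMT TANs. The ratios to Ltf gave 0 tests past 0.05 with a pseudocount of 5 too, and with 3 libraries against 4 no p under 0.0571 is possible. The ratio of Camp to Ltf between both TAN groups went from 0.26 to -0.03 on the log2 scale without PyMT replicate 4, and was -0.03 to 0.45 with each library left out.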
